A study of Mus musculus with 6 samples.

Results

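The genes described here encode channels that open, or have been linked to opening, when a membrane is stretched or a cell swells: Piezo1, Piezo2, Trpv1, Trpv4, Trpc1, Trpc6, Kcnk2, Kcnk4, Panx1 and Tmem63b. They are 10 of the 21911 protein-coding genes examined and were chosen by name. A gene's promoter was taken as 2.5 kb on either side of any of its transcription start sites (TSS), and its locus as the gene body with 20 kb on either side. The 10 loci held 169 of the 135652 peaks in the 6 lists, and these merged into 41 of 39950 regions.

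H3K27ac, the acetylated lysine 27 of histone H3 and a mark of active promoters and enhancers, was profiled by ChIP-seq in bulk retina of wild-type mice that were 3 months old at the first pressure elevation. The groups differ in what the sampled eye went through: the 4xIOP eyes had 4 episodes, spaced 2 weeks apart, in which the intraocular pressure (IOP) was held at 30 mmHg for 1 h, and the control eyes, from the untreated side, had none. The interval from the final episode to sampling was 2 days for both groups. Each group holds 3 samples, each the retina of 1 eye, and the labels do not say which eyes came from the same animal. The treatment text of the series also describes injections of dasatinib or vehicle, and the sample labels do not say whether these animals received either. The study asked whether repeated pressure in young retina brings H3K27ac changes like those that 1 elevation brings in aged retina.

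Each list carries a name of its own, and in 4 of 6 lists that name is of the other group. Control replicates 1 and 2 carry the 4xIOP name and 4xIOP replicates 1 and 2 the control name, while both replicates 3 carry the name of their label. The samples were kept as labelled, and every direction between the groups depends on the labels being right. The lists held 16195 to 36509 peaks, and control replicate 3 stood apart with the 36509, against at most 21893 in the others. H3K27ac marked the promoters of 6 of 21 retinal cell markers in all 6 lists, the rod genes Nrl, Gnat1 and Pde6b among them, and of 8 to 10 per control list and 7 to 8 per 4xIOP list. The 6 also included 1 of 3 bipolar markers and 1 of 3 Müller glia markers. Another 9 of the 21 were marked in no list: Arr3 and Opn1sw of cones, Rlbp1 of Müller glia, Nefl, Sncg and Pou4f1 of ganglion cells, and Gad1, Pax6 and Onecut1 of amacrine and horizontal cells. Over all protein-coding promoters, 39.5% were marked in all 6 lists and 42.4% in none. Rbpms of ganglion cells was marked in 2 4xIOP lists. None of 18 markers of microglia, vessels, pigment epithelium, lens or blood was marked in any list.

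Mechanosensitive channels turn membrane tension into an ion current. The Piezo proteins are cation channels gated by tension, and Piezo2 is best known from touch-sensing neurons. Trpv1 and Trpv4 belong to the vanilloid TRP channels, of which Trpv4 responds to swelling and is known from Müller glia and ganglion cells of the retina, and Trpc1 and Trpc6 are canonical TRP channels with calcium-entry roles. Kcnk2 (TREK-1) and Kcnk4 (TRAAK) are two-pore potassium channels that tension opens. Panx1 forms a channel that releases ATP, and Tmem63b is a cation channel of the OSCA/TMEM63 family.

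The TSS sequences give bases next to the starts of genes whose promoters were marked or not, and come from RefSeq (GRCm38.p6). The 250 bases before the start are given 5′ to 3′ on the gene's strand for 4 genes: Trpc1, marked in all 6 lists (chr9:95750349-95750598, minus strand), Kcnk4, marked in the control lists alone (chr19:6934516-6934765, minus strand), Panx1, marked in 1 list (chr9:15045479-15045728, minus strand), and Trpc6, marked in none (chr9:8543892-8544141, plus strand). For Tmem63b the 62 bases between its start and that of the divergent gene Mrpl14 are shown (chr17:45686260-45686321, minus strand). Capitals mark CpG dinucleotides.
Trpc1: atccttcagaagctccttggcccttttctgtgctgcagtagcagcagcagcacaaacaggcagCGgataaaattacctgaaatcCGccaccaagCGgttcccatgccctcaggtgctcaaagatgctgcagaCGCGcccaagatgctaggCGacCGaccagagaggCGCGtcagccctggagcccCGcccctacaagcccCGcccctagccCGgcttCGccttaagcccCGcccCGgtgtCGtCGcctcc
Kcnk4: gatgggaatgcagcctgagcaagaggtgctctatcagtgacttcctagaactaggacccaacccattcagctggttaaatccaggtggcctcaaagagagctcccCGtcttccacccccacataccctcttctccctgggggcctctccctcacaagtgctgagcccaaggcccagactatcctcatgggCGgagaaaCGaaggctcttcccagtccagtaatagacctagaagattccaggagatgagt
Panx1: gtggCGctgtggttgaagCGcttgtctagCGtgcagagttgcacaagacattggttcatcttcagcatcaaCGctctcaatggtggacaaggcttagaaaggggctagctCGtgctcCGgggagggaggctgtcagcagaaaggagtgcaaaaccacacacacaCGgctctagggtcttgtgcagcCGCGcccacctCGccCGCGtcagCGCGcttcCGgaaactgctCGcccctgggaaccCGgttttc
Trpc6: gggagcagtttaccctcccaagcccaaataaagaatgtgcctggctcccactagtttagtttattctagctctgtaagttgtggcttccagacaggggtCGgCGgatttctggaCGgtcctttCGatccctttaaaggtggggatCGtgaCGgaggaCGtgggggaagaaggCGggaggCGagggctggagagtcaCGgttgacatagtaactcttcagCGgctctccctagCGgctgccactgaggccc
Tmem63b: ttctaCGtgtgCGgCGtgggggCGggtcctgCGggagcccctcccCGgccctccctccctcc
These runs hold 17 CpG in Trpc1, 3 in Kcnk4, 17 in Panx1 and 12 in Trpc6. Kcnk4 thus had the CpG-poorest of the 4 printed upstream runs and was marked in 3 lists, while Trpc6 with 12 CpG was marked in none. The printed runs of Trpc1, Panx1 and Tmem63b lie outside the called peaks. For Kcnk4 only the peaks of control replicates 1 and 2 reach into the run. The 300 bases around the highest promoter summit held 44 CpG in Trpc1, 33 in Panx1 and 21 in Kcnk4.

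The promoters of 2 members, Trpc1 and Tmem63b, were marked by H3K27ac in all 6 lists, against 39.5% of all protein-coding promoters. Kcnk4 was marked in each of the 3 control lists but not in 4xIOP, Piezo1 and Panx1 in control replicate 3 alone, and Piezo2, Trpv1, Trpv4, Trpc6 and Kcnk2 in no list. The share of all protein-coding promoters marked in no list was 42.4%, beside 5 of 10 members, and 5.23% were marked in control replicate 3 alone, beside 2 of 10 members. The median number of lists with a marked promoter was 0.5 over the members and 2 over all protein-coding genes. A gene without a peak lay below the threshold of that list, which is not the same as lacking the mark. In bulk retina, fewer cells of a type and less of the mark per cell cannot be told apart.

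Heights are given as relative pile-up, the fragments at a peak's summit divided by the mean background of the genome in the same list. At that background a call needed a relative pile-up of 3.55 to 4.48, depending on the list. A summit height does not grow with the length of a gene. The highest peak over all annotated starts of a gene was taken, and the members have 1 to 6 starts (6 in Kcnk2). A gene with more starts thus had more room for a promoter peak.

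**Figure D1:**
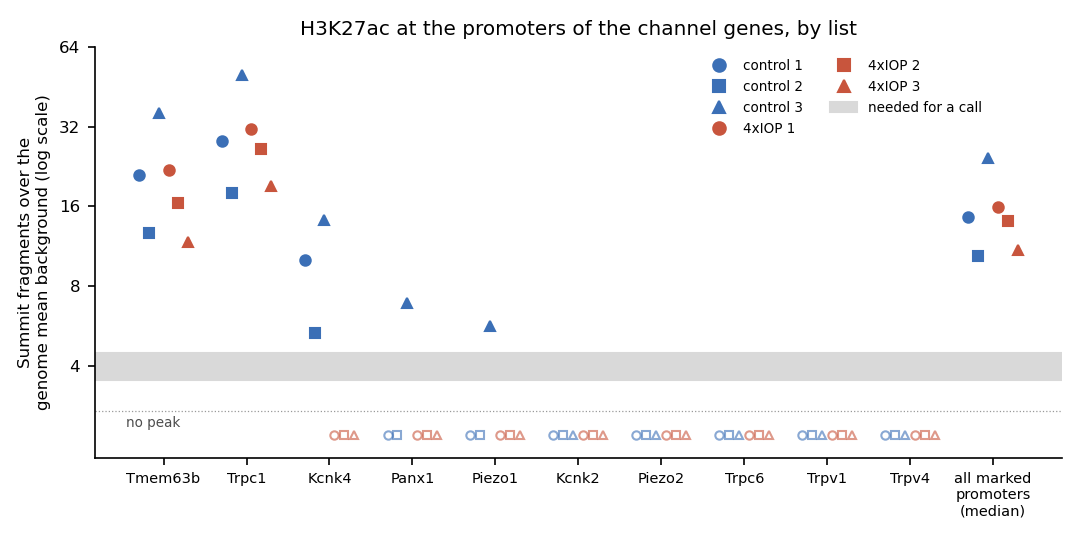
Relative pile-up (fragments at the summit over the genome mean background, log scale) at the highest promoter peak of each channel gene, with blue for control lists, red for 4xIOP lists and marker shape for the replicate number. Open symbols at the bottom are lists with no peak, the grey band is the height needed for a call at the mean background (3.55 to 4.48), and the last column is the median over all marked promoters of each list. Trpc1 and Tmem63b have 6 filled symbols each, Kcnk4 has 3, all control, and 5 genes have none.

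Trpc1 (ENSMUSG00000032839.13, chr9:95705082-95750375, minus strand, GRCm38) carried the highest promoter mark of the 10 genes. Control replicates 1 to 3 had a relative pile-up of 28.3, 18.04 and 50.2, and 4xIOP replicates 1 to 3 had one of 31.3, 26.4 and 19.1. The groups overlapped, with control replicate 3 highest and control replicate 2 lowest. Within each list this promoter ranked between the 89.5th and the 96.8th percentile of all marked promoters. The summits lay 0.321 kb past the TSS at the median, over an exon. The log2 relative pile-up was 4.88 ± 0.74 (SD, n = 3) in control and 4.65 ± 0.36 (SD, n = 3) in 4xIOP, a difference of −0.23 (exact two-sided permutation test, p = 0.7, where 3 against 3 lists cannot give a p under 0.1). Over the 8657 promoters marked in all 6 lists the median difference was −0.27 on the same scale, so Trpc1 lay 0.04 above it. The difference of Trpc1 was 0.15 without control replicate 3, −0.59 without control replicate 2, −0.39 without 4xIOP replicate 1 and −0.04 without 4xIOP replicate 3.

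A weaker region lay in an intron of Trpc1, 7.78 kb past the TSS, and was called in 5 of 6 lists. Control replicates 1 to 3 had a relative pile-up of 14.6, 10.4 and 19.8 and 4xIOP replicates 1 and 2 one of 18.9 and 19.8, with no call in 4xIOP replicate 3. A second region at 7.14 kb, over an exon, was called in control replicate 3 and 4xIOP replicate 1 alone. The 300 bases around the highest summit of the intronic region (control replicate 3) (chr9:95742393-95742692, minus strand, GRCm38.p6) are shown because they differ from the promoter in base composition. Capitals mark CpG.
Trpc1 intronic element: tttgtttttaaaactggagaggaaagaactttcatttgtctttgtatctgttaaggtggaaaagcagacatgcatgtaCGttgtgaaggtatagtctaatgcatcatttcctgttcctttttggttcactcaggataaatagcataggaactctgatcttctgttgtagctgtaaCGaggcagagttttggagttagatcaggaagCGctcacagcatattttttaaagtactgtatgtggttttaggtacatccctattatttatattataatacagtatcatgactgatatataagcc
This window has a GC content of 35.3% and 3 CpG, and the same length around the promoter summit has 78.3% and 44 CpG. The 10527 windows around regions called in all 6 lists had a median of 65.3% GC and 24 CpG.

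Tmem63b (ENSMUSG00000036026.15, chr17:45660171-45686905, minus strand) was marked by a pair of peaks on either side of the start that it shares with Mrpl14, a mitochondrial ribosomal protein gene. For the higher peak, control replicates 1 to 3 had 20.98, 12.7 and 36.0, and 4xIOP replicates 1 to 3 had 21.9, 16.5 and 11.7. As for Trpc1, control replicate 3 was highest, and the groups overlapped. The promoter ranked between the 57.9th and the 81.8th percentile of marked promoters. The log2 relative pile-up was 4.41 ± 0.75 (SD, n = 3) in control and 4.01 ± 0.45 (SD, n = 3) in 4xIOP. The difference of −0.40 (exact two-sided permutation test, p = 0.5) lay −0.12 from the median of all promoters. It was −0.02 without control replicate 3, −0.77 without control replicate 2, −0.62 without 4xIOP replicate 1 and −0.16 without 4xIOP replicate 3. Both peaks also fall in the Mrpl14 promoter, and the lists do not say which gene the mark belongs to.

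Upstream of Tmem63b the mark recurred at 3 further sites in all 6 lists, at −9.19 kb within Mrpl14 and at −14.1 and −15.1 kb beyond it. The region at −14.1 kb was higher than the promoter itself in all 6 lists, where control replicates 1 to 3 had 31.5, 20.1 and 50.6 and 4xIOP replicates 1 to 3 had 30.8, 29.2 and 14.0. At −9.19 kb the control lists had 15.5, 12.7 and 21.5 and the 4xIOP lists 20.4, 23.1 and 12.1. In both regions the labelled groups overlapped. By the lists' own names, the values at −9.19 kb were 21.5, 20.4 and 23.1 in those named control and 15.5, 12.7 and 12.1 in those named 4xIOP. Grouped that way they did not overlap and were lower in 4xIOP, while at −14.1 kb they still overlapped. The grouping by name was not tested. Of the 15 regions in the 10 loci that were called in all lists, these had the smallest unadjusted limma p in each direction: the score of the region at −9.19 kb was higher in 4xIOP by 0.66 ± 0.33 (SE, adjusted p = 0.9999) and that of the region at −14.1 kb lower, at −0.56 ± 0.31 (SE, adjusted p = 0.9999). Neither passed the test. Regions inside the gene at 5.25 kb (control replicate 1, 4xIOP replicates 1 and 2) and 22.6 kb (control replicate 3, 4xIOP replicate 2) came and went between lists of both groups.

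A stretch of the region at −9.19 kb (chr17:45695145-45695444, minus strand, GRCm38.p6) is shown as the one with the smallest p toward 4xIOP, as labelled, in that ranking. By the lists' own names its direction is the opposite. It is centred on the summit of 4xIOP replicate 2, the highest of the 6, at −9.04 kb. The summits of control replicates 1 and 3 also lie within it, and those of the other 3 lists lie outside. It holds 1 match to the AP-1 motif TGANTCA, in capitals, searched on both strands.
Tmem63b upstream element: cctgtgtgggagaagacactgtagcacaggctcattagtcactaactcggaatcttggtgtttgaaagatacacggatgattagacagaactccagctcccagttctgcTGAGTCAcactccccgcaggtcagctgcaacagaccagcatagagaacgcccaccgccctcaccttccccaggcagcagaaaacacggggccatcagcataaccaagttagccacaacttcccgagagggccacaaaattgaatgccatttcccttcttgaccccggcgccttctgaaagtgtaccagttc
Of the 10527 windows of this length, each centred on the highest summit of a region called in all 6 lists, 3.80% held an AP-1 match. Those windows differ in composition, with medians of 65.3% GC and 24 CpG, where this one has 53.0% and 9. It also holds 1 match to the GC box GGGCGG. The window of the next region, at −8.33 kb and called in 2 control and 2 4xIOP lists, held an AP-1 match as well. The match is a description of the letters and no evidence of binding.

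Kcnk4 (ENSMUSG00000024957.9, chr19:6923966-6934515, minus strand) was the 1 member whose promoter marking separated the groups. Control replicates 1 to 3 had a relative pile-up of 10.0, 5.32 and 14.2 (22, 18 and 35 fragments), and no 4xIOP list had a peak there. Over all protein-coding genes, 0.361% of promoters (79 genes) had a peak in each control list but in none of 4xIOP, and 0.0% the reverse. With every list reduced to its strongest 16195 peaks these counts were 29 and 10 genes, and with 1 list left out at a time they were 82 to 277 and 0 to 36 (36 without control replicate 3). No test was made of 1 gene in 10 against that share. The control peaks were low ones, at the 20.6th, 4.84th and 22.7th percentile of the marked promoters of their lists.

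The height at which a 4xIOP list would have called such a peak depends on the local background, which under the control peaks of replicates 1 to 3 was 1.67, 1.15 and 1.93 times the genome mean. At the background of the control replicate 2 peak, the lowest of them, a call needed a relative pile-up of 4.48, 4.71 and 4.29 (9, 10 and 11 fragments) in 4xIOP replicates 1 to 3, below its 5.32. At the background of the control replicate 1 peak it needed 5.46 to 5.65, below its 10.0, and at that of control replicate 3 it needed 5.85 to 6.47, below its 14.2. No counting error was estimated for these small counts, and the cause of the missing 4xIOP peaks was not tested. With only peaks of a −log10 q of at least 5, Kcnk4 was marked in 2 control lists and still in no 4xIOP list. When every list was reduced to its strongest 16195 peaks, it was marked in 3 control lists and no 4xIOP list. By the lists' own names, the 3 lists with the peak are 2 that carry the 4xIOP name and 1 that carries the control name, so the separation rests on the labels.

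The other peaks of the Kcnk4 locus mostly sat at the promoters of its neighbours, Prdx5 and Trmt112 (24.6 kb), Esrra (12.9 kb) and Gpr137 and Bad (−6.76 and −7.65 kb), all of which were called in all 6 lists. Control replicates 1 to 3 had 10, 10 and 9 peaks in the whole locus, and 4xIOP replicates 1 to 3 had 8, 6 and 7. Per 1000 peaks of the list these are 0.46, 0.50 and 0.25 in the control lists and 0.39, 0.29 and 0.43 in the 4xIOP lists, so that the groups overlapped once the length of the lists was counted. A region at −17.6 kb, at no coding promoter, was also called in all lists, where the control lists had a relative pile-up of 13.2, 8.58 and 20.7 and the 4xIOP lists one of 12.4, 9.42 and 9.74. The flanks of Kcnk4 were marked in every list that lacked the peak at its own start. Among all 39950 regions, 1.05% (418) were called in each control list but in none of 4xIOP, and 6 showed the reverse. Of the 41 in the member loci the Kcnk4 promoter was the single one of the first kind, and none showed the reverse.

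**Figure D2:**
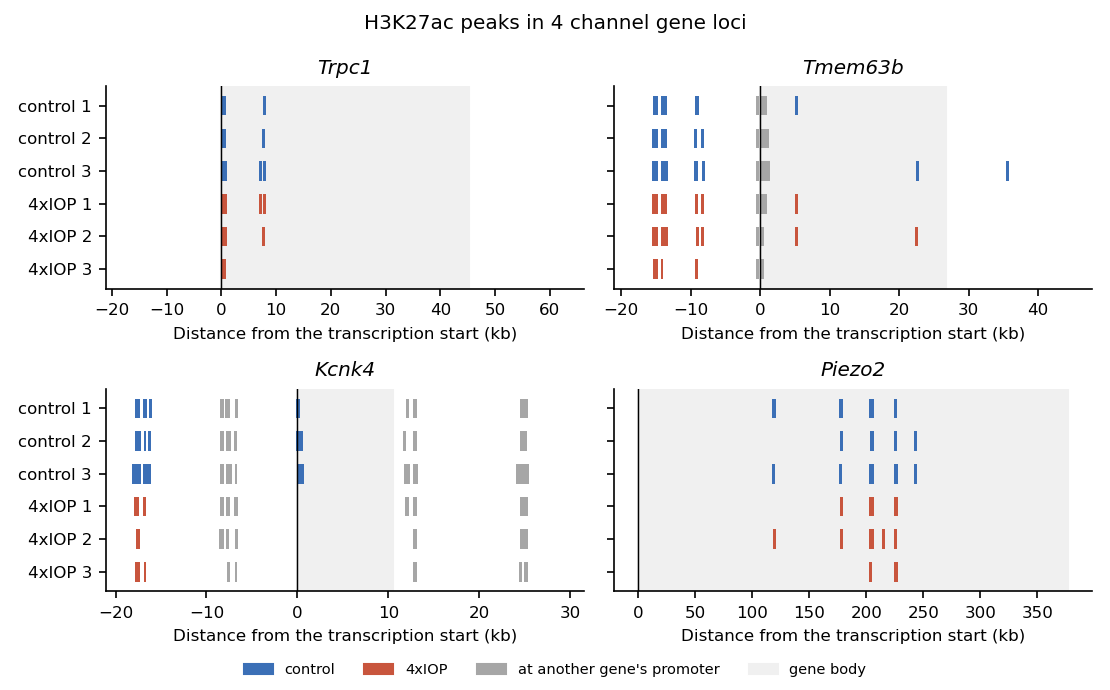
Peaks along 4 loci, one row per list, against the distance from the nearest annotated TSS in kb (positive into the gene). Blue and red bars are control and 4xIOP peaks, grey bars overlap the promoter of another protein-coding gene, light shading is the gene body, and narrow peaks are widened so that they can be seen. The bars at the Kcnk4 start are in the 3 control rows alone, while those of Trpc1 and Tmem63b are in all 6 rows.

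Piezo2 (ENSMUSG00000041482.17, chr18:63010213-63387183, minus strand) had no promoter peak in any list but 4 to 8 peaks inside the gene in each, and 36 of these 37 peaks had an intronic summit. They lay 118 to 243 kb past the nearest TSS and overlapped the promoter of no other coding gene. The region at 204 kb was called in all 6 lists, where control replicates 1 to 3 had a relative pile-up of 20.5, 13.3 and 36.0 and 4xIOP replicates 1 to 3 one of 20.9, 26.9 and 12.1. At 225 kb the control lists had 12.8, 9.17 and 14.2 and the 4xIOP lists 13.9, 12.3 and 7.79. The groups overlapped in both, and both limma adjusted p were 0.9999. Regions at 205 and 178 kb were called in every list except 4xIOP replicate 3, the list with the fewest peaks (16195).

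Piezo1 (ENSMUSG00000014444.17, chr8:122481698-122551329, minus strand) had a promoter peak in control replicate 3 alone, with a relative pile-up of 5.67 from 14 fragments. It ranked at the 3.03rd percentile of marked promoters there. All 18 other peaks of the locus lay at the promoters of Rnf166 and Ctu2 (75.4 and 74.9 kb) or of Cdt1 (−16.3 and −16.9 kb). Panx1 (ENSMUSG00000031934.14, chr9:15002128-15045478, minus strand) had 1 peak in all, at its promoter in control replicate 3, with a relative pile-up of 6.89 from 17 fragments. Both peaks came from the list that held the most peaks.

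Trpv4 (ENSMUSG00000014158.12, chr5:114622152-114658421, minus strand) had no promoter peak and 8 weak peaks in its locus over 4 lists. The region at −6.24 kb from its nearest start, within an intron of longer transcripts, was called in control replicates 1 and 3 and 4xIOP replicate 2 at 9.58, 11.3 and 8.48. The region at −8.96 kb was called in control replicates 1 and 3 and 4xIOP replicate 1 at 6.39, 7.696 and 8.45. Kcnk2 (ENSMUSG00000037624.15, chr1:189207930-189402273, minus strand) had a single intronic peak of 11 fragments in control replicate 1. Trpv1 (ENSMUSG00000005952.15, chr11:73234292-73261242, plus strand) and Trpc6 (ENSMUSG00000031997.9, chr9:8544142-8680741, plus strand) had no peak anywhere in their loci in any list.

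CpG content did not sort the members by their marking. In windows of 300 bases (250 before and 50 after a start), Tmem63b had 34 CpG, Trpc1 22 and Kcnk4 5. Of those marked in 1 list, Piezo1 had 34 and Panx1 25. Of those marked in none, Trpv4 had 30, Trpc6 17, Trpv1 4, and the 4 starts of Kcnk2 had 33, 33, 6 and 3. The median was 22 CpG over 8689 promoter windows of genes marked in all lists and 4 over 7472 of genes marked in none. Trpv4, Trpc6 and 2 of the starts of Kcnk2 thus lay above the upper quartile of unmarked promoters (8 CpG), and Kcnk4 lay below the lower quartile (8 CpG) of promoters marked in 3 lists. Around the highest Kcnk4 summit, 300 bases inside the gene held 21 CpG. The GC box GGGCGG, searched on both strands, had 3 matches each in the windows of Trpc1, Tmem63b and Trpv4 and 1 in those of Kcnk4, Piezo1 and 1 start of Kcnk2, and 47.8% of all coding promoters held it. Of the other motifs, the OTX/CRX motif TAATCC matched in no member window (6.44% of all promoters). TEAD (GGAATG, 13.4%) matched in Kcnk4 and 1 start of Kcnk2, STAT (TTCNNNGAA, 7.74%) in Kcnk4, and AP-1 (TGANTCA, 6.998%) in 1 start of Kcnk2. RefSeq windows matched 9 of the 10 members, all except Piezo2.

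**Figure D3:**
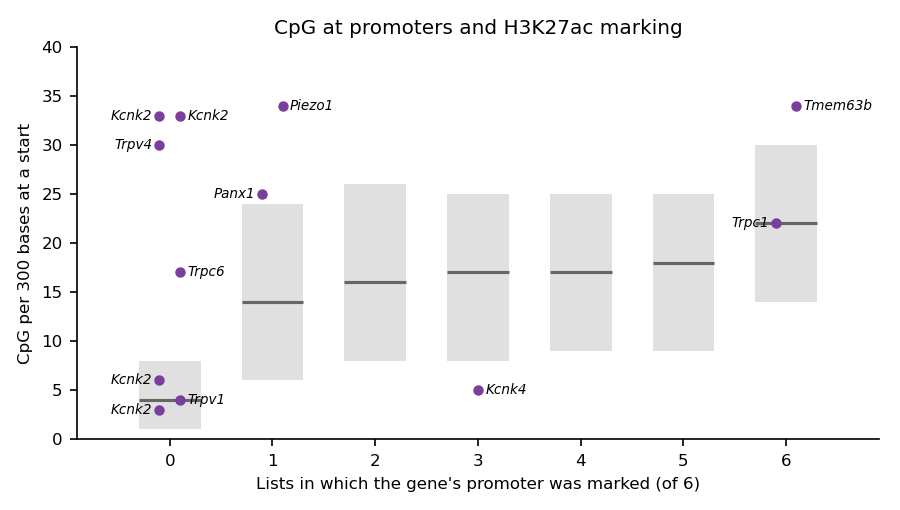
CpG per 300 bases at a start (250 before, 50 after) against the number of lists in which the gene's promoter was marked. Grey boxes run from the lower to the upper quartile over all protein-coding promoters with a line at the median, and purple points are the starts of the channel genes. Trpv4 (30), 2 starts of Kcnk2 (33) and Trpc6 (17) lie above the box for unmarked promoters, and Kcnk4 (5) lies below the box for 3 lists.

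Between the groups, control replicates 1 to 3 had 3, 3 and 5 member promoters marked and each 4xIOP list had 2. The mean was 3.67 ± 1.15 (SD, n = 3) in control and 2.00 ± 0.00 (SD, n = 3) in 4xIOP, and Kcnk4 in all control lists with Piezo1 and Panx1 in control replicate 3 made up the whole gap. Over all protein-coding genes, 46.2% to 56.9% of promoters were marked in control lists and 44.6% to 47.4% in 4xIOP lists. The control lists had 32, 26 and 38 peaks in the 10 loci and the 4xIOP lists 28, 25 and 20, so the groups overlapped. Per 1000 peaks of a list the loci held 1.27 ± 0.21 (SD, n = 3) in control and 1.27 ± 0.09 (SD, n = 3) in 4xIOP. The covered length was 16.0 ± 5.6 kb in control and 10.9 ± 3.2 kb in 4xIOP (SD, n = 3), where control replicate 3 alone had 22.4 kb. Of the 169 peaks, 64 lay at the promoter of another coding gene.

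**Figure D4:**
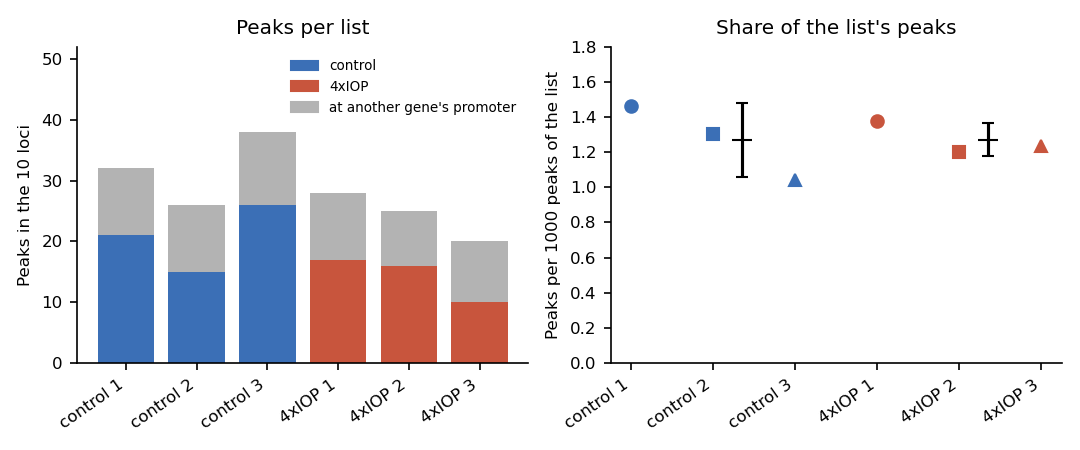
Left, peaks in the 10 loci per list, with grey for those at another gene's promoter; right, the same peaks per 1000 peaks of the list, where black marks give the group mean ± SD of 3 lists. Control replicate 3 has the most peaks (38) but the lowest share (1.04 per 1000), and the group means of the share are both 1.27.

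In the model over all genes, limma on within-list ranks called 0.0% of the 8657 promoters marked in all 6 lists at an adjusted p under 0.05, and 270 had an unadjusted p under 0.05. The score difference (4xIOP minus control, in SD of the ranked values) was 0.04 ± 0.42 (SE) for Trpc1 and −0.20 ± 0.35 (SE) for Tmem63b, both with an adjusted p of 0.9997 (Benjamini-Hochberg). Over the 10529 regions called in all lists (26.4% of all regions, beside 15 of the 41 in the member loci and 7 of the 29 there that lie at no promoter of another gene), limma called 0.0% and 333 had an unadjusted p under 0.05. These tests cannot speak for Kcnk4, Piezo1 or Panx1, which were not marked in all lists. The labels number the samples as replicates without naming animals, so the p-values measure the spread between these lists.

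Of 21 other channels linked to stretch, swelling or pressure, 7 had a promoter marked in all 6 lists and 5 in none, beside 39.5% and 42.4% of all protein-coding promoters. Among the 7 marked in all 6 lists, the highest mean relative pile-ups were at Pkd1 (polycystin-1, 23.4) and Trpm7 (19.7). Trpv2, a vanilloid TRP channel, was the 1 gene of the list marked in each control list but in none of 4xIOP, and none showed the opposite. Over all protein-coding genes that pattern held for 0.361%, or 79 genes, and for 29 genes, against 10 the reverse, once every list had the same number of peaks. The number marked was 11 to 16 per control list, the 16 in control replicate 3, and 8 to 10 per 4xIOP list, with no test. By the lists' own names these counts overlapped, with 16, 10 and 9 in those named control and 11, 12 and 8 in those named 4xIOP. The shares of all coding promoters (46.2% to 56.9% in control lists and 44.6% to 47.4% in 4xIOP lists, as labelled) overlapped. Of 18 partners and targets of mechanical signalling, 10 were marked in all 6 lists and 5 in none, to be read against the same 39.5% and 42.4%, and no gene separated the groups. Among the 10 marked in all 6 lists, the highest were the integrin subunit Itgb1 (21.1) and the cytoskeletal kinases Rock2 (20.9) and Rock1 (20.6). The number marked was 11 to 13 per control list and 11 to 12 per 4xIOP list. The median number of lists with a marked promoter was 3 for the other channels and 6 for the partners and targets, beside 0.5 for the members.

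The genes whose log2 relative pile-up over the 6 lists was nearest to that of Trpc1, among 8656 compared, were Ak3, Sec14l1 and Ppa2, at Euclidean distances of 0.18, 0.18 and 0.19.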

How the data were processed

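Each sample is 1 ChIP-seq peak list in narrowPeak layout, called per sample. The authors deposited for each peak a fold, a −log10 p-value, a −log10 q-value and an integer score, the last not used here. The fold was read as the ratio of the summit pile-up to the local background, with 1 added to each. The submitters' processing notes name MACS2 and mm10 (GRCm38) without a role or parameters, the lowest deposited −log10 q was 1.31, and whether an input library was used is not given in the sources used here. Groups and replicate numbers came from the labels.

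Fragments at each summit and the local background were recovered from fold and −log10 p (within 0.001 for at least 99.99% of peaks) and divided by the lowest background of the list. The files give no read totals, so depth is known through this background alone (2.01 to 3.38 fragments). Promoters came from GENCODE vM21 basic, with an overlap of at least 1 base. Promoters or regions called in all 6 lists were compared by limma 3.58.1 (R 4.3.3) on normal scores of the within-list rank of fold, with Benjamini-Hochberg adjustment and a threshold of 0.05. The study names no test for these lists. Single genes were compared by exact permutation tests (Python 3.11.15, pysam 0.24.0). Samples were not paired by replicate number in the main tests, since the labels do not say which eyes came from the same animal.

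The members and lists were chosen with earlier results of these data known. All 10 members were named, with neighbours whose promoter a peak overlapped, genes of the 2 further lists that separated the groups or were among the 3 highest, the 3 nearest in pattern to the highest member, and the regions with the smallest limma p. Some genes that this rule or the marker list names are not reported here. Alternatives covered peak thresholds, windows, ranks, the replicate block and left-out lists, of which the comprehensive annotation and an equal pile-up for every list were added after seeing the data.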

Additional observations from a re-analysis of the deposited data

How the results depend on the processing

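The counts of calls by limma were 0 over genes and 0 over regions in each alternative run: peaks with a −log10 q of at least 5, ranks of summit fragments, unranked log2 pile-up, a term for fragment length class, each list left out, and the replicate block (0 genes, 0 regions). The replicate numbers gave no sign of pairing. Same-numbered lists had deviations correlated at −0.02, −0.05 and −0.15 over genes, and no list correlated best with its own number. Such correlations cannot exclude that same-numbered eyes came from the same animal. Without control replicate 3 the Trpc1 difference reversed to 0.15. Leaving out each list in turn gave −0.59 to 0.15 for Trpc1, −0.77 to −0.02 for Tmem63b, 82 to 277 for coding promoters marked in all control lists alone and 0 to 36 for those marked in all 4xIOP lists alone (36 without control replicate 3). It gave −2 to −1 for member promoters, −10.7 to −4.67 for locus peaks, −0.11 to 0.10 for peaks per 1000 and −7.01 to −1.82 kb for covered length.

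With every list reduced to its strongest 16195 peaks, the difference in locus peaks moved from −7.67 to −0.67, and the exclusive promoters to 29 for control and 10 for 4xIOP. With −log10 q of at least 5, peaks per 1000 moved to −0.21. Without peaks at other genes' promoters, 1 member (Trpc1) was marked in all 6 lists instead of 2, since the Tmem63b peaks also lie at Mrpl14. Only the 2 lists whose own name matches their label gave −3 member promoters and −18 locus peaks, with no test. These are control replicate 3, with the most peaks (36509), and 4xIOP replicate 3, with the fewest (16195). Per 1000 peaks of the list the order was the opposite, with 1.04 in control replicate 3 and 1.23 in 4xIOP replicate 3. The cause of the other moves was not tested. A weak mark is limited by the height each list needs for a call.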
